A study of Nannochloropsis oceanica with 36 samples.

Results

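The 56 transcripts described here were measured in Nannochloropsis oceanica (strain IMET1), a single-celled, oil-rich eustigmatophyte alga from the sea. They were abundant in fed cells, close to equal with and without nitrogen on average over 3, 4 and 6 h, and lower without nitrogen at 24 and 48 h. They were chosen by measured values from 9756 gene models, of which 9647 reached 1 FPKM (fragments per kilobase of transcript, scaled to the fragments mapped in the library) in at least 3 libraries. A difference between media was the mean log2(FPKM + 1) of the N-deprived libraries less that of the N-replete libraries. A member had a mean difference over 24 and 48 h of at most -1, a mean difference over 3, 4 and 6 h within 0.5 of 0, and a mean of at least 200 FPKM in N-replete medium at 48 h. The differences at 3, 4, 6, 24 and 48 h and the N-replete level at 48 h therefore made the choice. They and the changes between them are given as description, and no p-value of a single gene is given for them. Counts of calls are given for the changes from 3 to 6 h and from 24 to 48 h, and nothing is read from those counts. At the limits of the rule, scaffold00084.g3216 was inside with a late difference of -1.03 and scaffold00214.g6244 outside with -0.99. By the early difference, scaffold00026.g1156 was inside with -0.49 and scaffold00096.g3597 outside with -0.51. By the level at 48 h, scaffold00145.g5101 was inside with 209 FPKM and scaffold00185.g5871 outside with 197 FPKM.

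The control cultures received nitrogen-replete (N-replete) medium and the others nitrogen-deprived (N-deprived) medium, each from washed mid-logarithmic cells. All were lit without a dark phase (about 50 µmol photons m-2 s-1), kept at 25 °C and bubbled with air holding 1.5% CO2. Both media were sampled at 3, 4, 6, 12, 24 and 48 h, with 3 biological replicates in each of the 12 groups and 36 libraries in all. The precultures held 1 g/l NaNO3 as nitrogen source, and the labels name 3 cultures per medium but do not tie replicate numbers to cultures. All groups are strain IMET1, and the labels name no transgene or deletion.

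When nitrogen runs out, oleaginous algae slow growth, reduce pigments and the protein machinery of photosynthesis and translation, and store carbon as triacylglycerol. Messenger RNAs that are very abundant in growing algal cells often code for light-harvesting, carbon-fixing and ribosomal proteins. None of the 56 members is paired with a gene name in the files, and 0 of 9756 identifiers matched the reference table of 160 organelle genes, so no function is assigned to any member. Members are given by identifier and by 1-based position on the assembled sequences that the files name, and the build is not given in the sources used here.

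Summed FPKM ran from 475304 to 629498 per library, and a relative depth read from the steps of low FPKM values ran from 0.723 to 2.75 times the median library. The scale of N-replete 24 h replicate 1 (2.75) and of N-deprived 12 h replicate 3 (1.63) is ambiguous by a factor of 2. The first principal component (53.1% of the variance) separated the 6 libraries of 12 h, with scores of 96.9 to 102, from the other 30, with scores of -44.4 to 5.04. All results at 12 h rest on those libraries. The summed FPKM at 12 h was 532703 to 618135 in fed and 475304 to 525082 in deprived cultures, and the approximate relative depth was 0.763 to 1.00 in fed cultures, 1.01 in 2 deprived cultures and 1.63 in the ambiguous replicate 3. The part of either in the 12 h differences was not tested. Each FPKM value is relative to its library, and each library is a bulk culture, so fewer cells carrying a transcript and less of it per cell cannot be told apart.

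Together the members held a larger share of summed FPKM at 48 h than at 3 h in fed cells and a much smaller one in starved cells. Their summed FPKM at 3 h was 5.49% ± 0.0460 of the library sum with nitrogen and 5.58% ± 0.0491 without (SD, n = 3 each). At 12 h the shares were 7.11% ± 0.359 and 4.62% ± 0.0176, and at 48 h they were 7.36% ± 0.0218 and 1.56% ± 0.0220 (SD, n = 3 each). At 3 h each N-deprived library lay slightly above each N-replete library, and from 4 h on each lay below. The N-replete share was 6.45% ± 0.0806 at 24 h, below both its neighbours in time (SD, n = 3). The high N-replete share at 12 h did not reflect most members. There 45 of 56 stood below their own log2 mean over 3, 4 and 6 h, with a median of -0.88. Of the 11 above it, 6 were at least 2-fold higher, among them scaffold00140.g4815 and scaffold00140.g4814, with group means of 6010 and 4560 FPKM. Such peaks weigh on a sum, and these counts were not taken over all genes. Without scaffold00069.g2383, the most abundant member, the 48 h shares were 5.36% ± 0.0774 and 1.54% ± 0.0217 (SD, n = 3 each). The rule fixes the direction at the late times, and the levels are comparable between genes because FPKM is scaled to transcript length. Among the 100 transcripts with the highest group mean, 10 members were found at 3 h and 17 at 48 h in N-replete medium, against 15 at 3 h and 2 at 48 h in N-deprived medium.

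**Figure D1:**
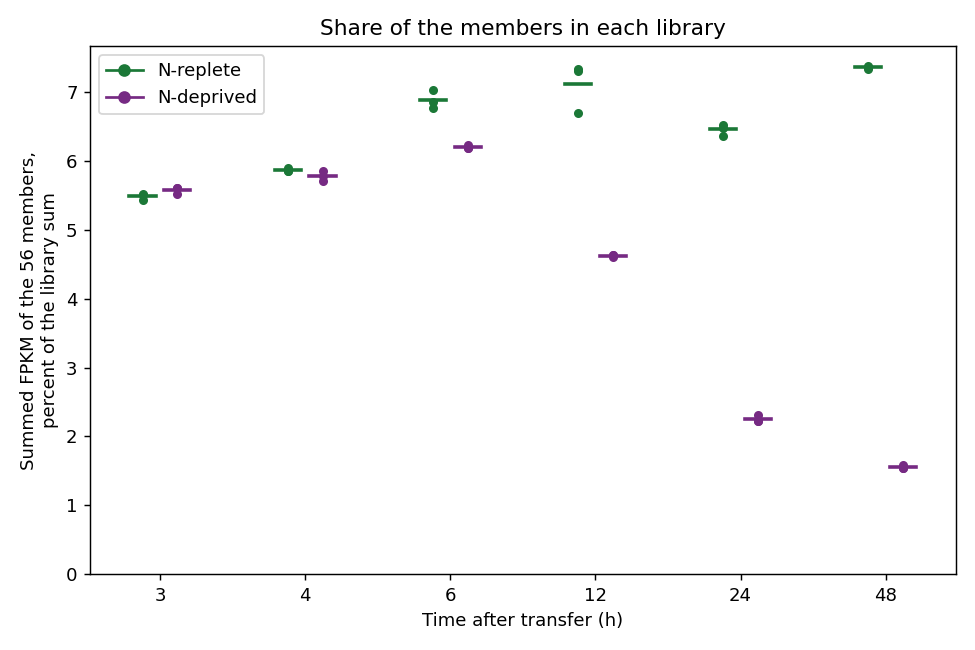
Summed FPKM of the 56 members as a percentage of the summed FPKM of each library (y axis) at each time after transfer (x axis, hours, evenly spaced), with a point per library and a bar at the mean of 3 libraries. The N-replete libraries end at 7.33 to 7.38% at 48 h and the N-deprived libraries at 1.54 to 1.58%.

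Most of the difference at 48 h came with a fall inside N-deprived medium rather than a rise inside N-replete medium. Relative to its own mean over 3, 4 and 6 h, the log2 level at 48 h in N-deprived medium was lower for 55 of 56 members, with a median of -1.48 and at least 2-fold lower for 36. The exception was scaffold00081.g2822. In N-replete medium at 48 h, 36 members stood above and 20 below their own early mean, with a median of 0.18, 0 members at least 2-fold lower and 4 at least 2-fold higher. At 24 h the N-replete levels were less steady. There 26 members stood below their early mean, 12 at least 2-fold, and 30 above, 5 at least 2-fold, with a median of 0.07. In N-deprived medium 49 were below at 24 h, with a median of -1.22. All these values share libraries with the rule, which also set the N-replete floor at 48 h. They carry no test, and such counts were not taken over all genes. The median difference between media over the members was -0.06 at 3 h, -0.21 at 6 h, -0.88 at 12 h, -1.02 at 24 h and -1.82 at 48 h, against medians over all genes tested of 0.10, 0.04, 0.10, 0.12 and 0.16. Median-ratio centring moved the median of all genes tested to -0.05 at 24 h and 0.01 at 48 h and left the members at -1.18 and -1.97. With quantile normalization the members stood at -0.82 and -1.68, and 42 of the 56 still met the rule. All 56 lay below 0 at both times under each of these 3 scalings. The rule had chosen them for low late differences, so these signs support nothing.

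The extreme case was scaffold00069.g2383 (scaffold00069, 445093 to 446789), the transcript with the highest group mean in N-replete medium at 3, 24 and 48 h. It was measured at 6001, 6218 and 5737 FPKM in the N-replete and 5642, 5806 and 5487 FPKM in the N-deprived libraries of 3 h. At 12 h the N-replete libraries held 3353, 3354 and 4192 FPKM and the N-deprived libraries 632, 575 and 544 FPKM. The media overlapped at 3 h and were far apart at 12 h, where the N-replete level was itself lower than at 3 h. At 48 h N-replete libraries held 10564, 11581 and 12009.9 FPKM, against 80.8, 67.5 and 72.1 FPKM in N-deprived libraries. By group mean it ranked number 1 of 9756 in N-deprived medium at 3 h, 64 at 12 h, 187 at 24 h and 1641 at 48 h. The difference at 12 h, which the rule did not use, was -2.63 (SE 0.11; limma, adjusted p = 7.54e-19).

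**Figure D2:**
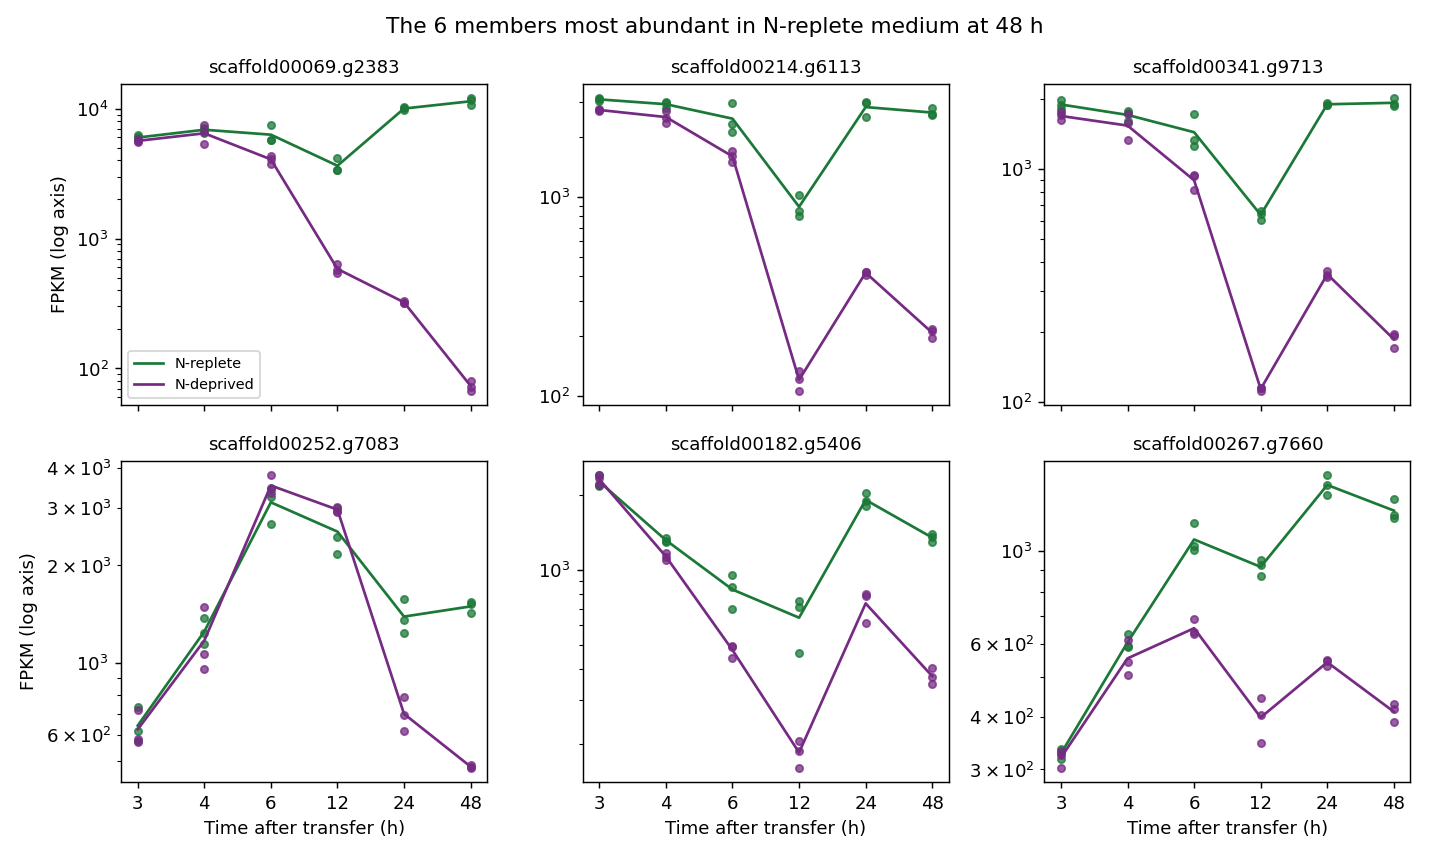
FPKM (y axes, log scale) of the 6 members most abundant in N-replete medium at 48 h, by time after transfer (x axes, hours, evenly spaced), with a point per library and lines through the means of 3 libraries. At 12 h the N-deprived libraries lie below the N-replete libraries for 5 of the 6, and for scaffold00252.g7083 the media overlap.

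At 12 h most members differed between media, and not all in the same direction. Of the 56 members, 35 were lower and 10 higher in N-deprived medium at a Benjamini-Hochberg adjusted p under 0.05 (limma, a linear model over all 36 libraries), and 11 passed in neither direction. Among all 9647 genes tested 23.9% were lower and 38.7% higher. The members' median difference was -0.88 and that of all genes tested 0.10. At least 2-fold lower were 23 members, against 3.87% of all genes, and at least 2-fold higher were 0, against 4.13%. The 3 N-deprived libraries lay all below the 3 N-replete libraries for 34 members and all above them for 10, against 22.5% and 35.3% of all genes. Of the 384 other genes at or above 200 FPKM in N-replete medium at 48 h, 68.8% were lower and 16.1% higher, with a median of -0.63, against 62.5% and 17.9% of the members. Of 419 less abundant transcripts that met the other limits of the rule, 33.4% were lower and 39.9% higher, with a median of 0.10. These sets were not compared by a test, and the 12 h shares of the members lie near those of the other abundant genes. The 2-fold counts and the counts without overlap were not taken over the 384 other abundant genes. Nothing particular to the members is read from them. With quantile normalization 29 members were lower and 16 higher, and the members' median was -0.24.

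**Figure D3:**
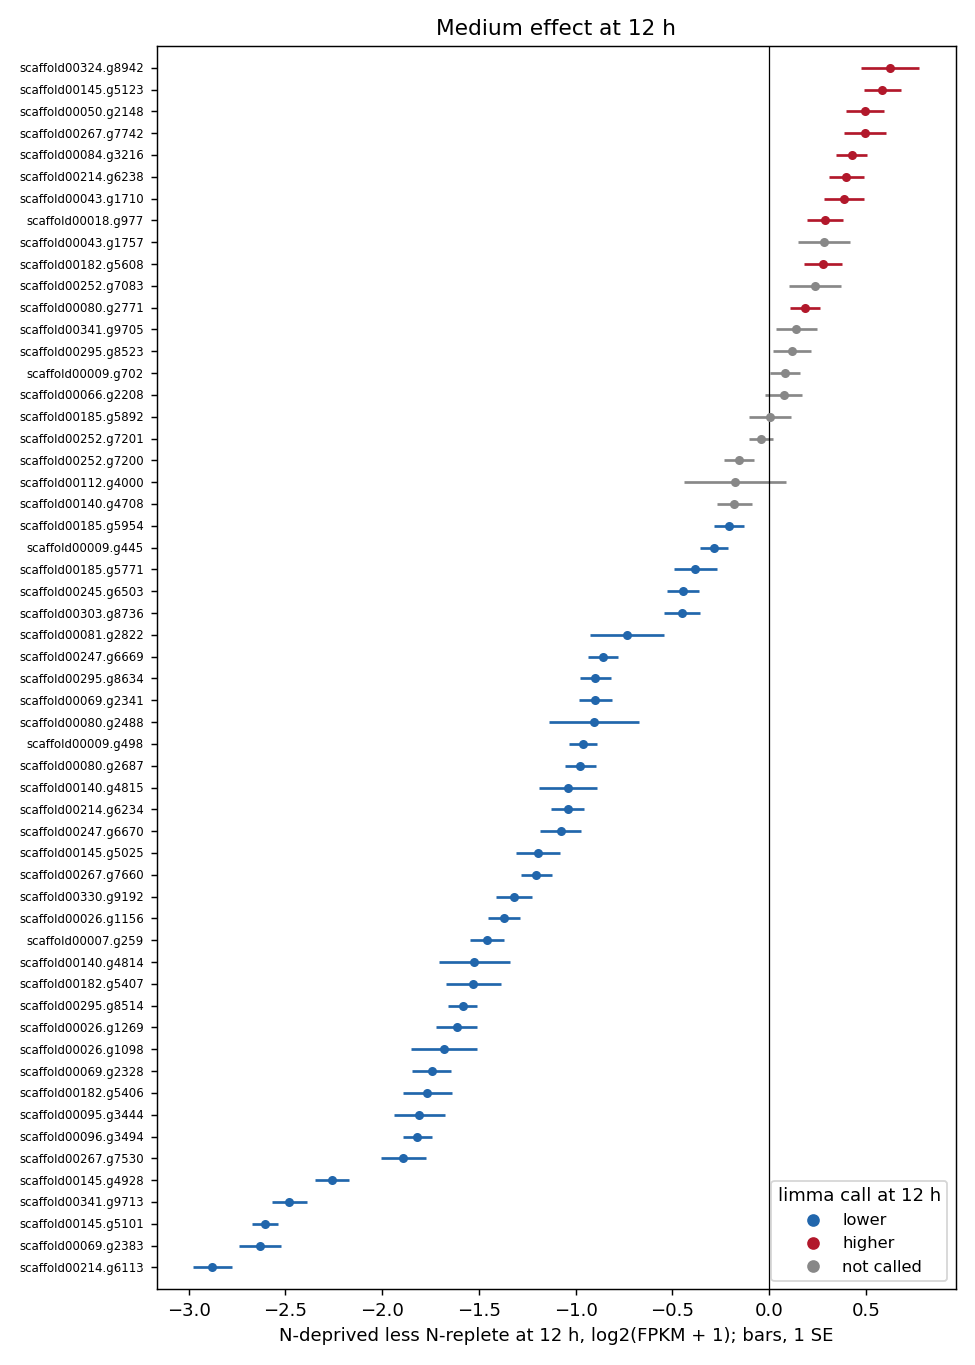
Difference between media at 12 h on the log2(FPKM + 1) scale (x axis, N-deprived less N-replete) for each of the 56 members (y axis), with bars of 1 SE from limma and the colour giving the call at an adjusted p under 0.05. The differences run from -2.88 for scaffold00214.g6113 to 0.63 for scaffold00324.g8942, with 35 called lower and 10 higher.

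Among the deepest 12 h differences were those of scaffold00214.g6113 and scaffold00341.g9713, whose level in fed cells dipped at 12 h as well. Averaged over media, 76% of all genes tested were lower at 12 h than at 6 and 24 h (limma, adjusted p under 0.05). For scaffold00214.g6113 (scaffold00214, 168652 to 170441) the N-replete libraries of 12 h held 848, 808 and 1028 FPKM and the N-deprived libraries 134, 122 and 107 FPKM. The groups did not overlap, and the difference was -2.88 (SE 0.10; limma, adjusted p = 1.02e-20). Its N-deprived level then recovered in part, to 423, 423 and 407 FPKM at 24 h, and stood at 217, 213 and 195 FPKM at 48 h. Transcripts of scaffold00341.g9713 (scaffold00341, 33126 to 34430) followed the same order, with 663, 604 and 643 FPKM in N-replete and 114, 114 and 112 FPKM in N-deprived medium at 12 h and a difference of -2.48 (SE 0.091; limma, adjusted p = 3.03e-20). The N-deprived libraries of that transcript differed little among themselves, and at 24 h they stood at 351, 364 and 345 FPKM.

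The least abundant member by the 48 h rule, scaffold00145.g5101 (scaffold00145, 755883 to 758353), was among the deepest at 12 h. It stood at 91.3, 91.7 and 107 FPKM in N-replete and 15.7, 15.2 and 14.3 FPKM in N-deprived medium, a difference of -2.60 (SE 0.068; limma, adjusted p = 1.15e-23). Its lowest library, at 14.3 FPKM, held the lowest value of any member in any library, and 0 member values were 0. Next came scaffold00145.g4928 (scaffold00145, 243338 to 249749), with 133, 148 and 172 FPKM against 32.9, 33.0 and 26.5 FPKM and a difference of -2.26 (SE 0.088; limma, adjusted p = 1.1e-19). The N-deprived level of scaffold00267.g7530 (scaffold00267, 62837 to 69371) was 79.7, 81.0 and 71.2 FPKM at 12 h, against 243, 267 and 371 FPKM in N-replete medium, a difference of -1.89 (SE 0.12; limma, adjusted p = 6.35e-15). None of these 3 overlapped between media at 12 h. Of the 8 members above 1000 FPKM in N-replete medium at 48 h, 6 were lower at 12 h, among them scaffold00182.g5406 at -1.77 (SE 0.13; limma, adjusted p = 3.02e-13), scaffold00267.g7660 (scaffold00267, 427616 to 428767) at -1.20 (SE 0.079; limma, adjusted p = 3.6e-14) and scaffold00069.g2328 at -1.74 (SE 0.10; limma, adjusted p = 1.36e-15). The member scaffold00182.g5608 was higher, at 0.28 (SE 0.096; limma, adjusted p = 0.0129), and scaffold00252.g7083 was not called. The call of scaffold00182.g5608 was lost without N-replete 12 h replicate 1, at 0.21 (limma, adjusted p = 0.0830), and with the 12 h libraries alone in the model (adjusted p = 0.0637).

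A smaller set was higher without nitrogen at 12 h and lower from 24 h on. The largest 12 h excess was of scaffold00324.g8942 (scaffold00324, 264252 to 273220), the longest member locus at 8969 bp. Its 12 h libraries held 439, 391 and 422 FPKM in N-replete and 671, 687 and 581 FPKM in N-deprived medium, without overlap, a difference of 0.63 (SE 0.15; limma, adjusted p = 0.00058). At 48 h the order was turned, with 359, 296 and 346 FPKM in N-replete and 49.4, 47.4 and 48.3 FPKM in N-deprived medium. For scaffold00145.g5123 (scaffold00145, 802063 to 803859) the N-replete libraries of 12 h held 227, 268 and 310.4 FPKM and the N-deprived libraries 409, 411 and 382 FPKM, also without overlap, a difference of 0.59 (SE 0.096; limma, adjusted p = 4.14e-06). Transcripts of scaffold00050.g2148 (scaffold00050, 93526 to 99190) and scaffold00267.g7742 (scaffold00267, 662755 to 666627) differed by 0.50 (SE 0.097; limma, adjusted p = 5.12e-05) and 0.50 (SE 0.11; limma, adjusted p = 0.000214). The N-replete libraries of scaffold00050.g2148 at 12 h held 165, 201 and 236 FPKM and its N-deprived libraries 280.0, 288 and 275 FPKM, again without overlap. All 4 had risen from 3 to 6 h in both media by group mean before they fell.

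The most abundant member without a 12 h call was scaffold00252.g7083 (scaffold00252, 192222 to 193859). It climbed in both media, from 619, 575 and 736 FPKM in N-replete and 585, 720.5 and 573 FPKM in N-deprived libraries at 3 h. At 12 h its N-replete libraries held 2170.2, 2454 and 3003 FPKM and its N-deprived libraries 2951, 3029 and 2931 FPKM, groups that overlap, with a difference of 0.24 (SE 0.14; limma, adjusted p = 0.128). By 48 h it stood at 1523, 1424 and 1542 FPKM in N-replete and 478, 485 and 480.4 FPKM in N-deprived medium. Without N-replete 12 h replicate 3 its 12 h difference was 0.36 and passed (limma, adjusted p = 0.0287), and with quantile normalization it was 0.39 (limma, adjusted p = 0.0141).

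**Figure D4:**
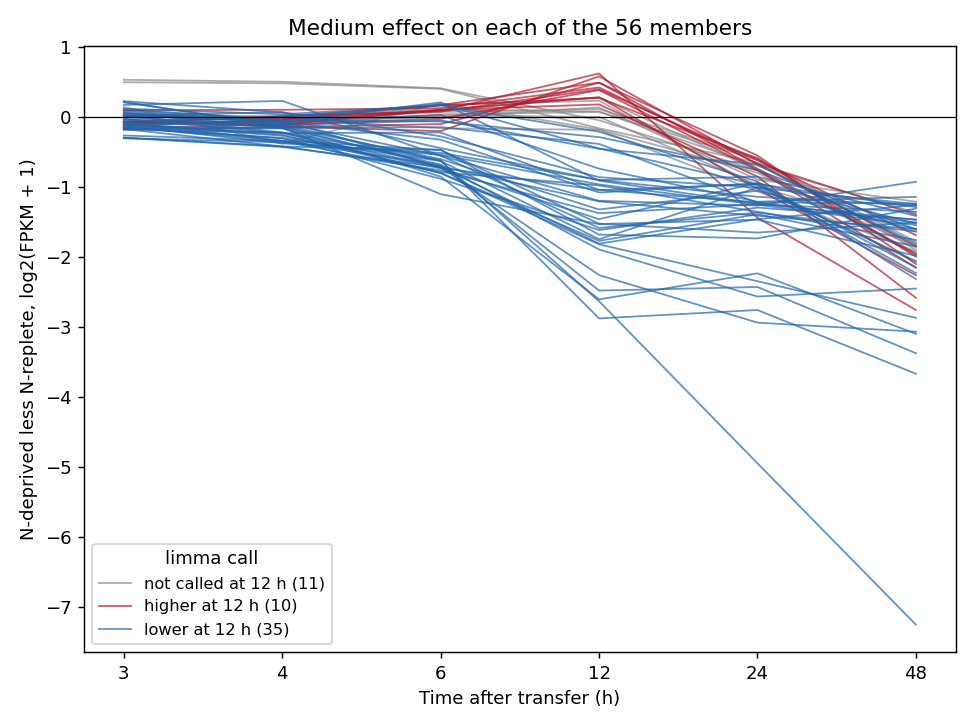
Difference between media on the log2(FPKM + 1) scale (y axis, N-deprived less N-replete) at each time after transfer (x axis, hours, evenly spaced), with a line per member coloured by its limma call at 12 h. The 35 members lower at 12 h have a median of -0.60 at 6 h, and the 10 higher at 12 h one of 0.10.

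The differences between media spread out from 3 to 6 h, within the span that the rule averaged. They ran from -0.30 to 0.54 at 3 h and from -1.10 to 0.42 at 6 h, where 22 of 56 were at or below -0.5. The change from 3 to 6 h had a median of -0.48 among the members lower at 12 h, 0.13 among those higher at 12 h and 0.05 among those without a call at 12 h. The rule used the differences at 3 and 6 h, so the calls of this change (limma, Benjamini-Hochberg adjusted p under 0.05) are given as counts only and nothing is read from them. They were 21 lower and 0 higher, with 12.8% of all genes tested lower and 8.17% higher, and at an unadjusted p under 0.05 they were 25 and 2. With quantile normalization they were 25 and 6. Of the 384 other abundant genes 23.4% were lower and 29.7% higher, and of the 419 less abundant transcripts 18.1% and 1.91%. Across the 56 members the 6 h and 12 h differences, from separate libraries, correlated with a Pearson's r of 0.823, a description over genes measured in the same libraries and limited at 6 h by the rule.

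The largest such step was of scaffold00182.g5407 (scaffold00182, 132666 to 133920). At 3 h it stood at 417, 399.5 and 379 FPKM in N-replete and 452, 400.3 and 402 FPKM in N-deprived libraries, which overlapped. At 6 h the N-replete libraries held 161, 115 and 134 FPKM and the N-deprived libraries 57.7, 68.8 and 61.9 FPKM. Levels fell in both media, further in N-deprived medium, where the highest library was below the lowest N-replete one, and the differences of 6 h and 3 h were -1.17 (SE 0.20) apart. For scaffold00214.g6234 (scaffold00214, 536041 to 537505) the 6 h libraries held 142, 136 and 169 FPKM in N-replete and 84.0, 93.0 and 92.1 FPKM in N-deprived medium, and the change from 3 h was -0.83 (SE 0.12).

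From 24 to 48 h the difference between media moved further down for 50 of 56 members, with a median of -0.70 on the log2 scale against 0.01 over all genes tested. The rule used the differences at both times and the N-replete level at 48 h, and it favours genes whose difference was still falling late. The calls of this step (limma, Benjamini-Hochberg adjusted p under 0.05) are therefore given as counts only, and nothing is read from them. They were 39 lower and 0 higher, with 18% of all genes tested lower and 15.7% higher, and at an unadjusted p under 0.05 they were 41 and 1. With the libraries of 24 and 48 h alone in the model they were 40 and 2. A like step was seen in less abundant transcripts. The same early and late limits chose them, so nothing is read from it there either. Of the 419 less abundant transcripts that met the other limits of the rule, 72.6% were lower and 1.43% higher, with a median of -0.90. Of the 384 other abundant genes 21.4% were lower and 28.4% higher, with a median of 0.02.

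Among the 21 members not called lower than in N-replete medium at 12 h, the step ran downward in each. It had a median of -1.28 for the 10 members higher at 12 h, -1.10 for the 11 without a call at 12 h and -0.33 for the 35 lower at 12 h, and this split was not tested. At 12 h most of the 21 stood below their own mean over 3, 4 and 6 h. In N-replete medium these were 9 of the 10 and 8 of the 11. The N-deprived counts were 7 of the 10 and 8 of the 11. By another measure, 76% of all genes tested were lower at 12 h than at 6 and 24 h averaged over media (limma, adjusted p under 0.05). Counts against the early mean were not taken over all genes, so nothing particular to the members is read from them. At 24 h, 17 of the 21 stood below that early mean in N-replete medium, with a median of -0.82 on the log2 scale. From 24 to 48 h, 20 of the 21 rose by group mean in N-replete medium, to a median of -0.22. In N-deprived medium 21 of 21 were below their early mean at 24 h, with a median of -1.66, and 19 of 21 were lower still at 48 h, with a median of -2.15. The exceptions were scaffold00084.g3216 and scaffold00009.g702.

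**Figure D5:**
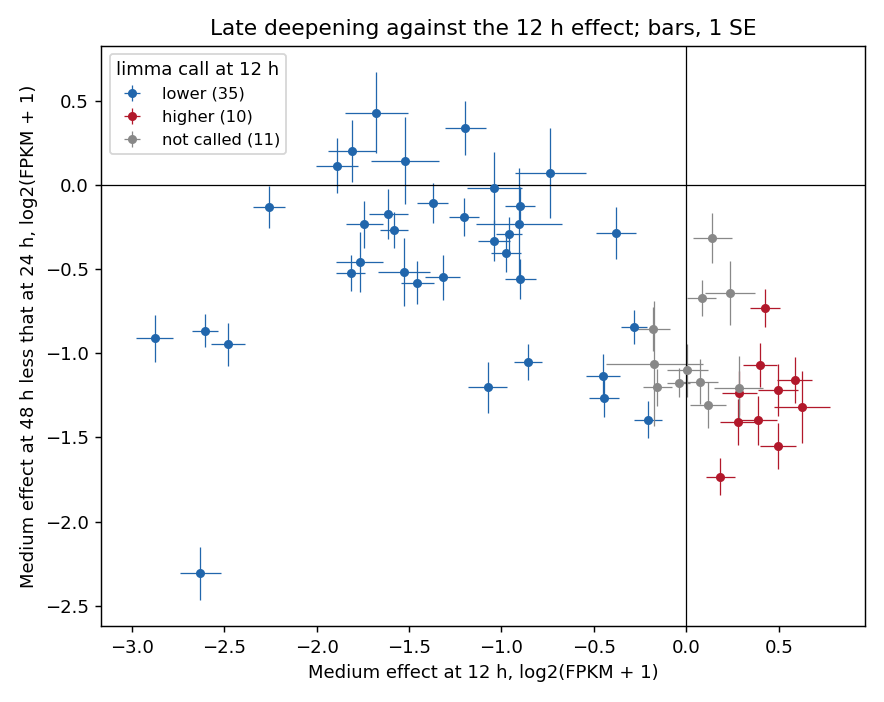
Difference between media at 48 h less that at 24 h (y axis) against the difference at 12 h (x axis), both on the log2(FPKM + 1) scale, for each of the 56 members with bars of 1 SE from limma and the colour giving the call at 12 h. The 10 members higher at 12 h lie between -1.73 and -0.73 on the y axis, and the 35 lower at 12 h between -2.31 and 0.43.

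An example is scaffold00080.g2771 (scaffold00080, 835929 to 837283). Its N-replete libraries held 189.5, 209.8 and 228 FPKM at 24 h and 481, 492 and 494 FPKM at 48 h. Its N-deprived libraries held 113, 119 and 114 FPKM at 24 h and 78.6, 81.2 and 82.8 FPKM at 48 h. The N-replete level rose while the N-deprived level declined, and the step was -1.73 (SE 0.11). The step of scaffold00050.g2148 was -1.55 (SE 0.14), and that of scaffold00069.g2383 -2.31 (SE 0.16). The transcript scaffold00069.g2383 differs from the other pair in that its N-replete level changed little, from 10135, 9668 and 10220.0 FPKM at 24 h, while its N-deprived level dropped from 318, 318 and 332 FPKM.

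At 12 h the level averaged over media, which the choice of members did not use, moved away from that of 6 and 24 h for nearly all members. It was lower for 43 members and higher for 10 (limma, Benjamini-Hochberg adjusted p under 0.05), against 76% and 18.9% of all genes tested. The members' shares, 76.8% and 17.9%, lie near this background. Of the 384 other abundant genes 86.2% were lower and 8.33% higher, and the sets were not compared by a test. The median was -1.05 for the members, -0.71 for the other abundant genes and -0.69 for all genes tested. Scaling moved this split, and with median-ratio centring 33 members were lower and 17 higher.

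Within that background, a few members made very large 12 h excursions. Transcripts of scaffold00081.g2822 (scaffold00081, 85253 to 86751) stood at 139, 109 and 84.4 FPKM in N-replete libraries at 6 h and at 2072, 2198 and 2527 FPKM at 12 h. In N-deprived libraries they went from 133, 96.9 and 106 FPKM to 1338, 1511 and 1233 FPKM. Both media rose, with N-deprived libraries all below N-replete libraries at 12 h, and the change against 6 and 24 h was 3.52 (SE 0.12; limma, adjusted p = 6.66e-23). It was 3.36 (SE 0.10; limma, adjusted p = 1.31e-23) for scaffold00026.g1098 (scaffold00026, 312659 to 314716) and 3.35 (SE 0.14; limma, adjusted p = 3.76e-20) for scaffold00080.g2488 (scaffold00080, 1 to 1711). For scaffold00026.g1098 the 12 h libraries held 3017, 2893 and 3885 FPKM in N-replete and 997, 1063 and 975 FPKM in N-deprived medium. These 3 peaks were lower without nitrogen, with 12 h differences of -0.74 (SE 0.19; limma, adjusted p = 0.00132), -1.68 (SE 0.17; limma, adjusted p = 6.42e-10) and -0.91 (SE 0.23; limma, adjusted p = 0.00122). With quantile normalization the differences of scaffold00081.g2822 and scaffold00080.g2488 no longer passed, at -0.17 and -0.26 (limma, adjusted p = 0.416 and 0.313). In the other direction the change was -2.16 (SE 0.061; limma, adjusted p = 1.9e-24) for scaffold00214.g6113, -1.93 (SE 0.069; limma, adjusted p = 5.16e-22) for scaffold00145.g5025 (scaffold00145, 538049 to 539983) and -1.84 (SE 0.056; limma, adjusted p = 8.78e-24) for scaffold00341.g9713. The N-replete libraries of scaffold00145.g5025 held 177, 186 and 252 FPKM at 6 h, 126, 82.8 and 94.5 FPKM at 12 h and 586, 592 and 595 FPKM at 24 h.

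The members lay on 28 of 284 sequences, with at most 4 on 1 sequence (scaffold00145) and 13 sequences holding 1 member. Their median locus length, introns included, was 1823 bp, with a range of 550 to 8969 bp. It was 1830.5 bp for the 440 genes tested at or above 200 FPKM in N-replete medium at 48 h and 2135 bp for all genes tested. The median spread between replicates was 0.120 on the log2 scale for members and 0.119 for all genes tested (SD within groups). For the 440 genes at or above 200 FPKM it was 0.103, below that of the members.

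Among the members were 4 pairs of neighbouring gene models. The closest, scaffold00247.g6669 and scaffold00247.g6670 (scaffold00247, 394582 to 397356 and 397361 to 398497), lie 4 bp apart and differed at 12 h by -0.86 (SE 0.078; limma, adjusted p = 5.83e-11) and -1.08 (SE 0.11; limma, adjusted p = 3.89e-10). Their 12 h libraries held 106, 98.1 and 103 FPKM and 134, 130.0 and 164 FPKM in N-replete medium, and 64.5, 55.4 and 49.5 FPKM and 77.4, 70.8 and 54.6 FPKM in N-deprived medium. In both genes the N-deprived libraries lay below the N-replete libraries.

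The pair scaffold00252.g7200 and scaffold00252.g7201 (scaffold00252, 514726 to 516070 and 516087 to 523161), 16 bp apart, had the most positive early differences of all members, at 0.50 and 0.54 at 3 h. At 12 h neither passed, at -0.16 (SE 0.078; limma, adjusted p = 0.0797) and -0.04 (SE 0.061; limma, adjusted p = 0.564). At 48 h they stood at 133, 136 and 145 FPKM and 77.7, 77.6 and 73.9 FPKM in N-deprived libraries, against 498, 502 and 502 FPKM and 283, 293 and 311 FPKM in N-replete libraries. After median-ratio centring both were called lower at 12 h, with -0.24 and -0.12 (limma, adjusted p = 0.000707 and 0.0108), and with quantile normalization both values lay just above 0, at 0.00055 and 0.0079. The first was also called lower without N-replete 12 h replicate 1, with -0.20 (limma, adjusted p = 0.0416), and without N-deprived 12 h replicate 2, with -0.21 (adjusted p = 0.0400). Libraries were made without strand information, so fragments of such close neighbours may be assigned to either, and how far they are separate transcripts was not tested.

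The pair scaffold00140.g4814 and scaffold00140.g4815 (scaffold00140, 848952 to 854570 and 855415 to 857702), 844 bp apart, peaked at 12 h. Their N-replete libraries then held 3375, 4849 and 5455 FPKM and 4795, 6391 and 6845 FPKM. Their N-deprived libraries held 1684, 1583 and 1411 FPKM and 2906, 2868 and 2906 FPKM. The groups did not overlap, and the differences were -1.52 (SE 0.18; limma, adjusted p = 1.93e-08) and -1.04 (SE 0.15; limma, adjusted p = 6.45e-07). With quantile normalization that of scaffold00140.g4815 no longer passed, at -0.13 (limma, adjusted p = 0.463). The fourth pair, scaffold00182.g5406 (scaffold00182, 129688 to 130561) and scaffold00182.g5407, 2104 bp apart, fell from 3 to 12 h in both media by group mean. At 12 h its N-deprived libraries held 189, 206 and 161 FPKM and 28.6, 27.8 and 30.5 FPKM, and its N-replete libraries 754, 465 and 711 FPKM and 124, 73.1 and 68.5 FPKM, without overlap, and scaffold00182.g5407 differed by -1.53 (SE 0.14; limma, adjusted p = 9.1e-11).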

How the data were processed

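Messenger RNA (poly(A)-selected, without strand information) of 36 libraries was sequenced, 3 in each of 12 groups of medium and time. FPKM values, 1 per gene model and library, are what the authors deposited. Per the submitters' processing notes, the authors ran TopHat2, version 2.0.4, as well as Cufflinks, version 2.0.2, with roles and settings not stated. The sources used here give no genome build, annotation or total fragment number. Values in the 36 single-library tables were equal to those in the joint table (0 differed), and 0 value columns were left unused. FPKM is relative to the library, so large changes in a few abundant transcripts shift the rest.

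Library titles gave the groups. The log2(FPKM + 1) values of the 9647 genes that reached 1 FPKM in 3 or more libraries were fitted with limma 3.58.1 in R 4.3.3 (a mean per group over all 36 libraries, trended prior, two-sided tests, Benjamini-Hochberg adjustment over all genes tested within each of 4 contrasts, threshold 0.05). The contrasts were the medium difference at 12 h, its change from 24 to 48 h and from 3 to 6 h, and the level at 12 h against 6 and 24 h averaged over media. The membership rule used the differences at 3, 6, 24 and 48 h, so the calls of both changes support nothing. Fold changes on this scale understate those of low genes. With 3 against 3 libraries an exact permutation test reaches a two-sided p of 0.10 at best, so calls rest on the variance that limma pools over groups. The p-values set a difference between group means against the spread between replicate libraries, whose numbers the labels do not tie to cultures. Replicates were distinct, with at most 0.01% of values above 0 equal within a pair.

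Relative depth was estimated from the spacing of small FPKM values. At the estimate, 82.6% of 2368 values from 94 low genes lay within 0.1 of a whole fragment, so it is approximate. Python 3.11.15 with pandas 2.3.3 was used for descriptions and figures.

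The members, lists and tests were chosen with earlier results of these data known. Genes were named by rule. It took the 6 members with the highest N-replete level at 48 h. It took the 6 lowest and 4 highest of the 12 h calls, and up to 3 calls per direction of the 48 less 24 h step and of the 12 h level. It also took the 2 largest 6 less 3 h steps among those called, neighbouring members, and the genes nearest each limit of the membership rule. The genes scaffold00069.g2328, scaffold00182.g5608 and scaffold00009.g702 are outside it and were named after their values were seen. The rule named scaffold00081.g2822, scaffold00026.g1098 and scaffold00080.g2488 for their 12 h level only. Their 12 h differences between media were also added after the values were seen. Gene lists by function could not be counted, because no identifier carried a matching name.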

Additional observations from a re-analysis of the deposited data

Results flagged for a closer look

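For 5 named members the difference between media at a later time stood apart from that at an earlier time. The differences at these times chose the members, so the values are a description and no test supports them. From 24 to 48 h it moved by -2.31 on the log2 scale for scaffold00069.g2383, by -1.73 for scaffold00080.g2771 and by -1.55 for scaffold00050.g2148. From 3 to 6 h it moved by -1.17 for scaffold00182.g5407 and by -0.83 for scaffold00214.g6234.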

How the results depend on the processing

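Over 9 other settings, the members called lower at 12 h numbered 29 to 38 and those higher 8 to 16, the latter with quantile normalization. For 48 h less 24 h, 38 to 48 were lower, and 2 were higher with the libraries of those times alone. For 6 h less 3 h, 20 to 25 were lower, and quantile normalization made 6 higher and median-ratio centring 2. For 12 h against 6 and 24 h, 33 to 43 were lower and 9 to 17 higher, the most with median-ratio centring. Leaving out each of the 36 libraries gave 33 to 37 lower and 8 to 14 higher at 12 h, 34 to 40 lower and 0 higher at 48 h less 24 h, 17 to 24 lower and 0 higher at 6 h less 3 h, and 42 to 44 lower and 10 to 11 higher for the 12 h level. The number of members was 130 with a floor of 100 FPKM, 29 with a floor of 400 FPKM, 21 with a late difference of at most -1.5, 34 with an early difference within 0.25 of 0, and 54 to 60 with a library left out. With quantile normalization 65 genes met the rule, 42 of them among the 56.

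For named members, 315 of 324 values under other settings and 313 of 318 with a library left out kept direction and side of the threshold. Signs turned for scaffold00252.g7200 (0.00055) and scaffold00252.g7201 (0.0079) with quantile normalization, and for scaffold00252.g7201 without N-replete 12 h replicate 3. Leaving out each library gave the latter -0.092 to 0.035. Neither was called. The cause of these changes was not tested.

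With the replicate block (replicate number as a fixed term), 35 members were lower and 10 higher at 12 h and 38 were lower at 48 h less 24 h. The numbers are not shown to pair the samples: deviations of same-numbered libraries of both media correlated by -0.274 to 0.413 over 18 pairs, with 4 over 0.1. With medium and replicate number together as a random effect (estimated correlation 0.122), 35 and 10 members were called at 12 h. The labels do not tie these numbers to cultures, so repeated sampling of a culture was not shown to be modelled. Depth limits low values, and the lowest member value was 14.3 FPKM.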
